A study of Mus musculus with 6 samples.

Results

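The mouse genes examined here encode the nuclear part of the mitochondrial respiratory chain and of ATP synthase. Gene symbols of the count table were matched by name (Ndufa, Ndufb, Ndufc, Ndufs, Ndufv, Sdh, Uqcr, cytochrome c, Cox4 to Cox8 and Atp5), leaving out assembly factors and pseudogenes. This gave 85 of 17213 genes. They comprise 35 genes of complex I, 4 of complex II, 9 of complex III, 18 of complex IV, 15 of complex V and cytochrome c itself. A further 3 matched by name but encode no subunit, namely Cox4nb (now Emc8, a subunit of an endoplasmic reticulum membrane complex), Atp5s (now Dmac2l) and Atp5sl (now Dmac2). Ndufa4 and Ndufa4l2 were counted with complex IV, where the Ndufa4 protein is now placed.

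RNA came from mouse dental follicle, a sac of connective tissue that surrounds a tooth before it erupts. Mandibular molars were taken at postnatal day 8, and cells were sorted for the red reporter tdTomato, here a label of PTHrP-positive cells. The 3 libraries labelled Het are given as Pth1r(+/-) and the 3 labelled KO as Pth1r(-/-), both conditional, so the controls also carry 1 altered allele of this receptor for PTH and PTHrP and there was no wild-type group. Tamoxifen, which starts the deletion, is given as day 3 in the text for the series and day 8 in the sample descriptions of both groups. The labels name neither the Cre line nor separate animals, so the p-values reflect the spread between libraries alone, which may be technical.

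Complexes I to IV pass electrons from NADH and succinate to oxygen, complexes I, III and IV pump protons across the inner mitochondrial membrane, and complex V, the ATP synthase, uses the returning protons to make ATP. Complex II is encoded by the nucleus alone, while the other complexes join nuclear subunits with core subunits made inside the mitochondrion, which were not analysed here. Several subunits of complex IV exist as isoforms encoded by separate genes that differ between tissues. In many tissues the transcription factors NRF1 and NRF2 (GABP, of the ETS family) act on promoters of such genes.

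Libraries held 34019925 to 66147200 counts. Whole-gene counts of the targeted gene went against the labels, although they do not show which exons were covered or whether the deleted part was transcribed. Pth1r was lower in the Het libraries (371, 286 and 346 CPM, which are counts scaled to library size after TMM) than in the KO libraries (961, 608 and 472 CPM). Every direction given here thus compares libraries by their label, KO against Het. Where 3 values stand in a row they are those of replicates 0, 1 and 2, and where values are set against each other the libraries labelled Het come first. Of 15 dental follicle markers, 15 passed the filter on low counts, and Pthlh, the gene of PTHrP, was at 260 to 350 CPM in the 6 libraries. Markers of dental epithelium summed to 5234 to 10880 CPM, a signal of another cell type in every library. Het replicate 2 stood apart: among the 8612 genes at log2 CPM 4 or higher on average, its log2 deviations from the mean of all libraries had an SD of 0.565, against 0.283 to 0.322 in the other 5. Fitted values are given with and without it for some of the genes that depend on it, and others depend on it too. Ndufa12, for example, went from -0.33 with it to 0.096 without it. In RNA from many cells, fewer cells of a type and less RNA per cell cannot be told apart.

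To show the sequences upstream of these genes, the 250 bases before each start site were read for 69 of the 85 genes in 75 windows (RefSeq, build GRCm38.p6). The NRF1 letters, GCGCA and GCGC with 1 base of any kind between them, were present on either strand in 14 of 75 windows (18.7%), against 7.15% of 13164 windows of genes tested and 3.74% of all 32851 windows. They were in 7 of 33 windows of complex I, 2 of 3 of complex II, 0 of 5 of complex III, 1 of 13 of complex IV and 4 of 17 of complex V. The 30-base stretches below hold the match nearest to the start site that has 10 bases on each side in the window. Of the 13 genes with the letters, 11 had such a stretch, and 8 are shown as examples from the complexes that hold the letters. The match is in capitals, and each runs 5′ to 3′ on the strand of its gene.
Ndufa11 (chr17:56717692-56717721, plus): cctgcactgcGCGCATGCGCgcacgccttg
Ndufb4 (chr16:37654371-37654400, minus): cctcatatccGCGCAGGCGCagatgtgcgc
Sdha (chr13:74350276-74350305, minus): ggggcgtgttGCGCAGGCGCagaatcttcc
Sdhd (chr9:50603909-50603938, minus): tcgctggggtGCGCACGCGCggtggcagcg
Cox6a1 (chr5:115349056-115349085, minus): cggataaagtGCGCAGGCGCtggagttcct
Atp5g2 (chr15:102671070-102671099, minus): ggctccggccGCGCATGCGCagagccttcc
Atp5h (chr11:115420041-115420070, minus): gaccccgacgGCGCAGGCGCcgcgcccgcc
Atp5k (chr5:108434430-108434459, minus): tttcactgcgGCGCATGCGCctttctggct
The window of Sdha held 3 matches, that of Ndufb4 held 3 and that of Cox6a1 held 2. The ETS letters CCGGAAG were in 12 windows (16%), against 11.8% of windows of genes tested and 6.91% of all windows, and the YY1 letters AAGATGGCG in 2 (2.67%), against 0.98% and 0.606%. Sdhd, Cox6a1 and Atp5h held both the NRF1 and the ETS letters. The windows of these genes were 56.6% GC, against 59.7% for genes tested. Such matches describe letters in a window and are not evidence of binding, and their difference from other genes was not tested.

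No gene of the chain passed the test of KO against Het. Of the 85 genes, 82 passed the filter on low counts, and edgeR's quasi-likelihood test called 0 of them at an adjusted p of 0.05, beside 0 of 14632 genes tested in all (0% called). The smallest adjusted p among them was 0.976, and 1 of 82 had an unadjusted p under 0.05, against 628 of 14632 genes (4.29%). That gene, Atp5s, was lower in the libraries labelled KO, as were 1.71% of all genes tested at that p. Without Het replicate 2, 2 of 82 (Ndufs1 and Cox4i2) had an unadjusted p under 0.05, against 5.94% of all genes tested. DESeq2 also called 0 of these genes, with a smallest adjusted p of 0.788, and 69 of 14595 genes in all (0.473%).

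Fitted values were small and leaned downwards in the libraries labelled KO. The fitted log2 fold change was below 0 in 59 of 82 genes (72.0%), against 51% of all genes tested, and above 0 in 23. Its median was -0.10, beside -0.0095 over all genes tested. It was at least 0.5 in size in 6 of 82 genes (7.32%), against 24.7% of all genes tested. Among genes at log2 CPM 4 or higher on average, the median size was 0.17 in 78 genes of the chain and 0.19 in all 8612. The lean rested partly on single libraries: without KO replicate 1 the fitted value was below 0 in 47 of 82 genes with a median of -0.04, without Het replicate 0 in 48 with a median of -0.08, and without KO replicate 2 in 65 with a median of -0.21. Without Het replicate 2 it was below 0 in 63 of 82 with a median of -0.09, and 60 of the 82 genes kept their sign.

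**Figure D1:**
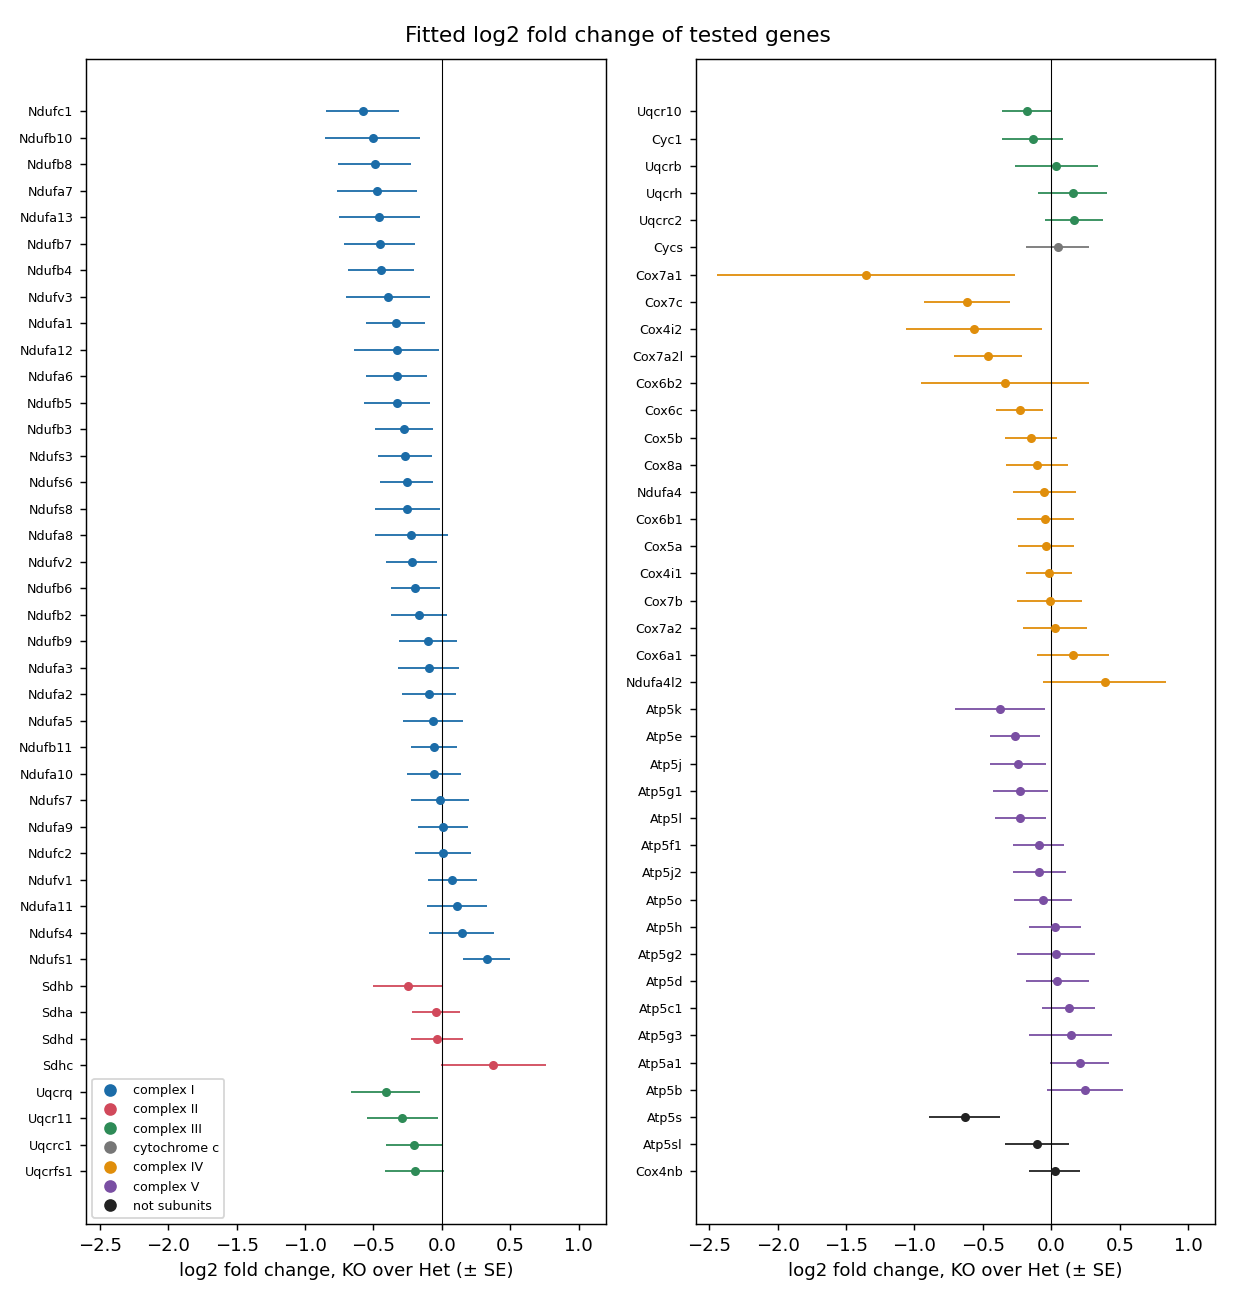
Fitted log2 fold change of KO over Het (points) with its standard error (bars) for 81 of the 82 genes tested in all 6 libraries, coloured by complex and ordered within it. Of these points 59 lie below 0, Cox7a1 has the widest bar, and none passed the test.

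Non-overlapping groups were seen in 11 of the 82 genes tested. All 3 libraries labelled KO were below all 3 labelled Het in 10 of 82 genes, beside 4.83% of all genes tested, and above them in 1, beside 5.84% of all genes tested. The 10 were Ndufa1, Ndufb3, Ndufb6, Ndufc1 and Ndufs6 of complex I, Cox6c, Cox7a1 and Cox7c of complex IV, Atp5e of complex V and Atp5s. The 1 in the other direction was Ndufs1.

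Complex I, the NADH dehydrogenase, had 34 of its 35 genes tested, of which 27 had a fitted value below 0 and 7 above it, with a median of -0.22 and a range of -0.58 to 0.33. Leaving out Het replicate 2, 26 were below 0 and the median was -0.09. Ndufc1 (chromosome 3, 51404677 to 51408988, minus strand), a small accessory subunit, had the smallest p and the largest fitted value of the complex. It was at 49.6, 48.5 and 87.9 CPM against 40.3, 38.4 and 45.8 CPM. The groups did not overlap, but Het replicate 2 was well above the rest. Its log2 fold change was -0.58 (SE 0.27, unadjusted p = 0.058, edgeR) and -0.24 without that library. Ndufb10, an accessory subunit of the membrane arm, was at 126, 91.3 and 244 CPM against 111, 84.8 and 129 CPM. The fitted value of Ndufb10, named here after its values were seen, was -0.51 with all libraries and -0.00060 without Het replicate 2. Ndufb8, the most abundant subunit transcript of the complex by length-scaled FPKM (mean 380 ± 158, SD over 6 libraries), was at 156, 150 and 276 CPM against 127, 125 and 162 CPM. Ndufs4, the least abundant of those tested at 30.1 ± 8.19 FPKM and an accessory subunit known from Leigh syndrome, was at 55.6, 45.2 and 31.9 CPM against 46.9, 48.3 and 51.7 CPM. Here Het replicate 2 was the lowest of the 6, opposite to its place for Ndufb8.

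The other complex I genes without overlap, named for that, differed by less. Ndufa1, an X-linked accessory subunit, was at 28.4, 27.9 and 29.6 CPM against 21.2, 20.4 and 26.4 CPM, with a fitted value of -0.34. Ndufb3 was at 25.5, 26.9 and 30.3 CPM against 23.9, 20.4 and 23.9 CPM, and Ndufb6 at 66.8, 59.8 and 61.0 CPM against 54.8, 51.9 and 57.3 CPM. Ndufs6, a zinc-binding accessory subunit, was at 46.9, 42.8 and 55.6 CPM against 42.4, 37.3 and 41.8 CPM. Gaps between the nearest libraries of the groups were small for all 4 genes, and their unadjusted p-values in edgeR ran from 0.16 to 0.30. Their fitted values without Het replicate 2 were -0.31 for Ndufa1, -0.20 for Ndufb3, -0.21 for Ndufb6 and -0.14 for Ndufs6. For Ndufa7, Ndufa13 and Ndufv3, named as examples of genes far higher in Het replicate 2, the fitted values were -0.48, -0.46 and -0.39 with it and -0.053, -0.053 and 0.033 without it.

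Ndufs1 (chromosome 1, 63143596 to 63176833, minus strand) encodes the largest subunit, an iron-sulfur protein of the matrix arm. Among the genes of the chain that were tested, it was the only one higher in every library labelled KO. Its levels were 83.6, 83.0 and 97.6 CPM against 114, 105 and 113 CPM (means 88.1 ± 8.29 and 110 ± 5.10, SD, n = 3). The log2 fold change was 0.33 (SE 0.17), with an unadjusted p of 0.091 in edgeR and an adjusted p of 0.976, and 0.41 with an unadjusted p of 0.023 without Het replicate 2. Its counts in the main table were 94.5% of the estimated counts in a second deposited table. Ndufv1, another core subunit of that arm, was at 189, 185 and 143 CPM against 189, 175 and 181 CPM, with overlapping groups. Ndufs1 and Ndufv1 were named after their values were seen. Ndufs5 was not tested, with 4, 1 and 0 counts against 5, 4 and 13, but its counts were 6.18% of its estimated counts, so its level is uncertain. The remaining 83 genes had at least 97% of their estimated counts.

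Complex II, succinate dehydrogenase, links the chain to the citric acid cycle. Sdha, the flavoprotein that oxidises succinate, was at 324, 340 and 282 CPM against 328, 292 and 297 CPM. Sdhb, the iron-sulfur subunit, was at 233, 189 and 361 CPM against 220, 190 and 248 CPM. Sdhc (chromosome 1, 171127165 to 171150603, minus strand), a membrane anchor, was at 182, 136 and 57.8 CPM against 175, 117 and 197 CPM. Het replicate 2 was the highest of 6 libraries for Sdhb and the lowest for Sdhc. Sdhd, the other anchor, was at 181, 164 and 204 CPM against 183, 150 and 202 CPM. The groups overlapped for all 4 genes, and fitted values ran from -0.25 (Sdhb) to 0.38 (Sdhc). Without Het replicate 2 these values were 0.06 and 0.04, and the median of the 4 genes was 0.04 in place of -0.04.

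Complex III passes electrons from ubiquinol to cytochrome c. All 9 genes were tested, and 6 had a fitted value below 0, with a median of -0.18 and a range of -0.41 to 0.17; without Het replicate 2, 7 were below 0 and the median was -0.04. Uqcrq, a small subunit with the smallest p and largest fitted value of the complex, was at 75.7, 57.4 and 102 CPM against 58.3, 49.0 and 69.3 CPM, overlapping groups with a fitted value of -0.41 (unadjusted p = 0.14, edgeR) and of -0.17 without Het replicate 2. Uqcrc1, a core protein and the most abundant of the complex (494 ± 132 FPKM), was at 722, 634 and 942 CPM against 664, 616 and 715 CPM. Its partner Uqcrc2, the least abundant (70.2 ± 15.7 FPKM), was at 146, 145 and 95.9 CPM against 144, 134 and 157 CPM. Again Het replicate 2 was the highest library for one core protein and the lowest for the other. Cyc1, the haem-bearing cytochrome c1, was at 225, 174 and 275 CPM against 216, 168 and 230 CPM. Cycs, the mobile carrier cytochrome c, was at 165, 111 and 141 CPM against 159, 109 and 163 CPM, with a fitted value of 0.05.

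Complex IV, cytochrome c oxidase, had 16 of its 18 genes tested, of which 13 had a fitted value below 0 with a median of -0.08. Without Het replicate 2, 15 were below 0 with a median of -0.17, and without Het replicate 0 the median was 0.05. Cox7c (chromosome 13, 86044816 to 86046904, minus strand), a small subunit with the smallest p of the complex, was at 35.0, 32.5 and 72.0 CPM against 30.2, 28.5 and 32.3 CPM. The groups did not overlap, and the fitted value of -0.62 (SE 0.32, unadjusted p = 0.083, edgeR) was -0.15 without Het replicate 2. Cox6a1, the most abundant transcript of the complex (580 ± 123.4 FPKM), was at 225, 172 and 112 CPM against 215, 164 and 190 CPM. Cox6c was at 111, 103 and 92.9 CPM against 91.6, 85.6 and 84.5 CPM, groups that came close but did not overlap.

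**Figure D2:**
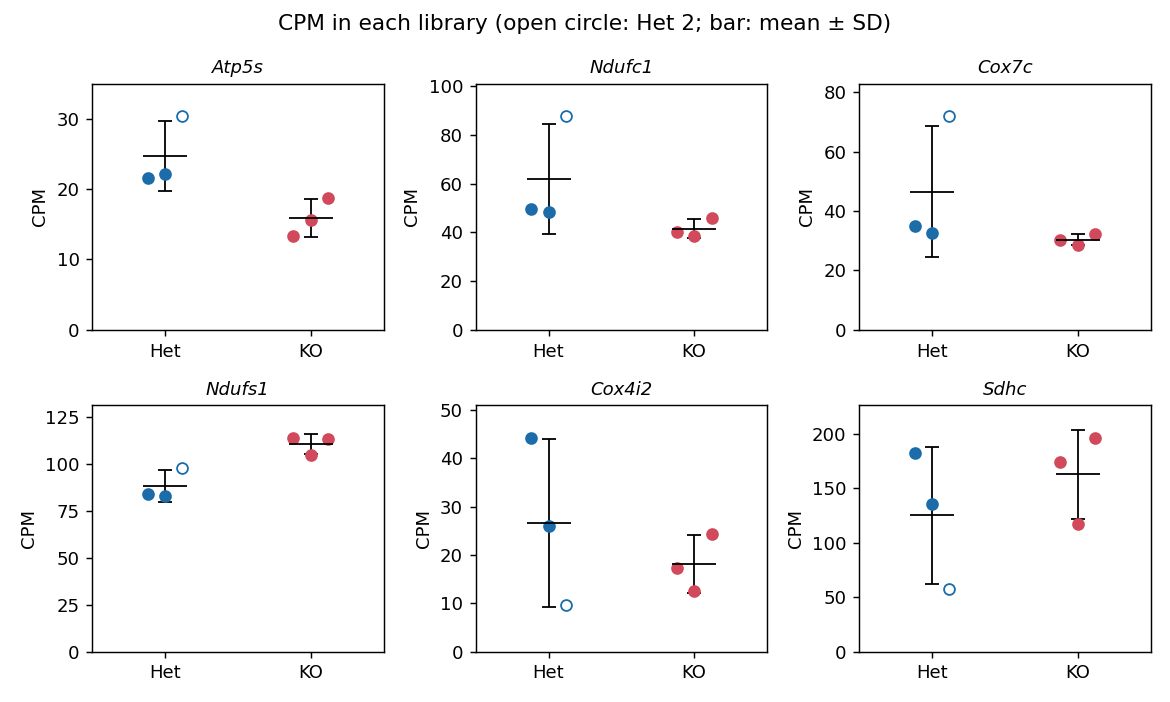
CPM in each library for Atp5s, Ndufc1, Cox7c, Ndufs1, Cox4i2 and Sdhc, with Het libraries on the left and KO libraries on the right of each panel, the mean and SD of 3 libraries as bars, and Het replicate 2 as an open circle. Het replicate 2 is the highest library for Ndufc1, Cox7c and Atp5s and the lowest for Cox4i2 and Sdhc.

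The isoforms of complex IV were dominated by the forms found in most tissues. Cox4i1, the general form of subunit 4, was at 283, 257 and 242 CPM against 251, 251 and 271 CPM. Cox4i2 (chromosome 2, 152754173 to 152765037, plus strand), a form known from lung and pericytes, was at 44.3, 26.0 and 9.66 CPM against 17.4, 12.5 and 24.4 CPM. The libraries labelled Het spread over the whole range of the others. By FPKM, Cox4i2 made up 12.4, 7.86 and 3.87% of the pair against 5.87, 4.11 and 8.23%. Its fitted log2 fold change was -0.56 (SE 0.50, adjusted p = 0.976, edgeR), -0.96 without Het replicate 2 (adjusted p = 0.746) and 0.0022 without Het replicate 0. Of 12 pericyte and smooth muscle markers 11 were tested, with fitted values below 0 in 8 and above 0 in 3, and they summed to 1192 to 1291 CPM in the libraries labelled Het and 875.5 to 1058 CPM in those labelled KO. Most of that sum was the smooth muscle gene Acta2 (717, 708 and 814 CPM against 569, 487 and 525 CPM), which, like Tagln, did not overlap between groups. The pericyte markers Cspg4, Pdgfrb and Rgs5 had fitted values above 0 (0.85, 0.67 and 0.43). Below 0 were Mcam, Kcnj8, Notch3 and Abcc9 (-0.30, -0.24, -0.068 and -0.063) and the smooth muscle genes Myh11 and Cnn1 (-0.83 and -1.02). All of these overlapped between groups. Higd1b was at 0 in 4 of 6 libraries. The part of these cells in the value of Cox4i2 was not tested.

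Muscle and testis forms were rare or absent. Cox7a1 (chromosome 7, 30184144 to 30186078, plus strand), the heart and skeletal muscle form, was at 0.386, 0.334 and 0.674 CPM against 0.131, 0.312 and 0.0951 CPM, and had the largest fitted value of the chain, -1.36 (SE 1.09, unadjusted p = 0.25, edgeR). At such low counts its SE was large, and the value was -2.01 without KO replicate 1 and -0.98 without Het replicate 2. Its general counterpart Cox7a2 was at 72.2, 67.4 and 43.2 CPM against 62.7, 55.3 and 68.4 CPM. The related Cox7a2l, a factor in joining complexes III and IV, was at 62.0, 62.1 and 103 CPM against 50.8, 51.9 and 62.2 CPM. Skeletal muscle markers summed to 13.9 to 22.5 CPM in the libraries labelled Het and 7.90 to 15.1 CPM in those labelled KO. Of these markers, Ryr1 gave the largest part in all libraries but Het replicate 2, at 8.99, 14.5 and 4.33 CPM against 9.03, 4.26 and 4.15 CPM. Of 16 such markers, 13 had counts and 5 of these were tested, Ckm was at 0 in 2 libraries and Acta1 at 0 in 3, and their part in the level of Cox7a1 was not tested. Cox6a2, also a muscle form, had counts in Het replicate 0 (15) and KO replicate 0 (1) alone, and Cox7b2, a testis form, in KO replicate 2 alone (9), so neither was tested.

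Cox6b2, a form known from testis, was at 6.48, 7.66 and 1.63 CPM against 4.498, 4.01 and 3.98 CPM, while the general Cox6b1 was at 110, 91.4 and 81.6 CPM against 96.7, 73.8 and 105 CPM. Cox7b, the general form beside Cox7b2, was at 47.9, 39.0 and 28.4 CPM against 36.3, 35.5 and 42.5 CPM. Cox8a was at 132, 98.6 and 87.4 CPM against 113, 77.1 and 105 CPM. All these groups overlapped. Ndufa4l2, a paralogue known to rise in low oxygen, was at 6.996, 3.06 and 7.33 CPM against 7.06, 9.20 and 6.53 CPM, and Ndufa4 at 125, 122 and 76.5 CPM against 104, 91.9 and 116 CPM. The fitted value of Ndufa4l2, 0.39, was the highest of the chain, with an unadjusted p of 0.41 in edgeR, and was 0.61 without Het replicate 2.

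**Figure D3:**
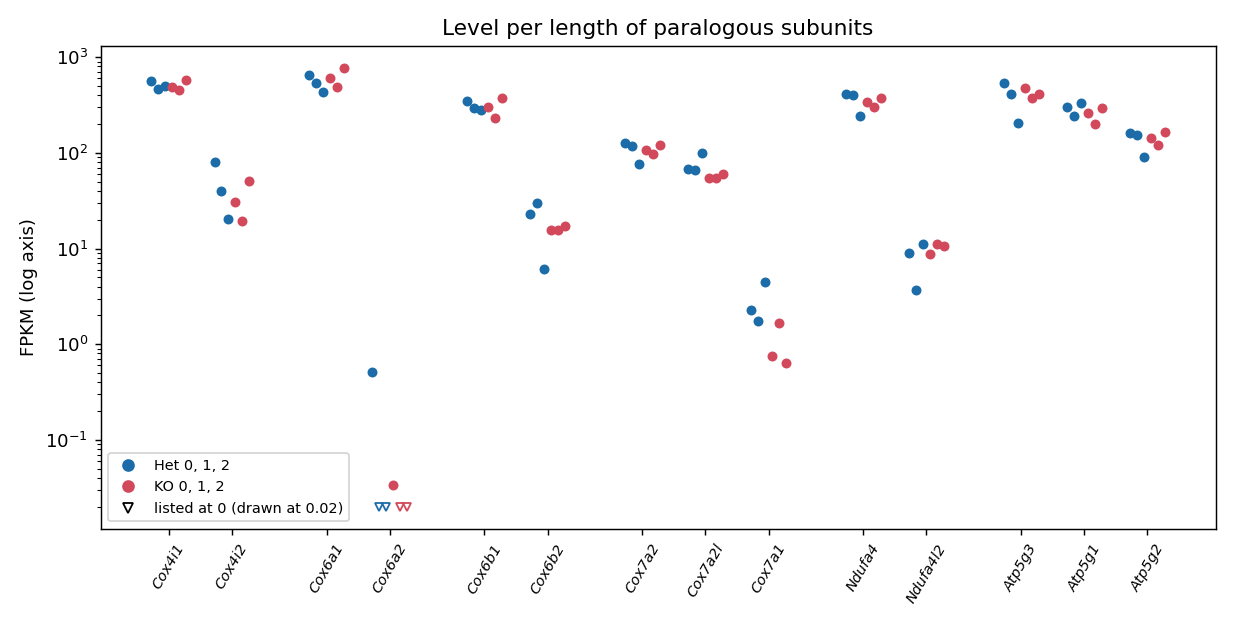
FPKM of isoform sets of complex IV and of subunit c of ATP synthase, on a log axis, with 1 point per library (Het blue, KO red, replicates 0 to 2 from left to right) and values listed at 0 drawn at 0.02. Cox4i1, Cox6a1, Cox6b1 and Ndufa4 lie above their rarer forms in every library, and Cox7a2 lies above Cox7a1 in every library. Cox7a2 lies below Cox7a2l in Het replicate 2 alone (75.7 against 99.4 FPKM), and Atp5g3 lies below Atp5g1 in that library alone.

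Complex V, the ATP synthase, had all 15 genes tested, with 8 fitted values below 0 and 7 above, a median of -0.06 and a range of -0.38 to 0.25. The median was -0.080 without Het replicate 2 and 0.06 without KO replicate 1. Atp5b, the catalytic beta subunit and the most abundant transcript of the chain (665 ± 153 FPKM), was at 1482, 1212 and 699 CPM against 1412, 1225 and 1387 CPM. Het replicate 2 was the lowest by far and the other 5 libraries were close together; the fitted value of Atp5b was 0.25 with it and -0.00059 without it. Its partner Atp5a1, the alpha subunit (named after its values were seen), was also lowest in Het replicate 2, at 1042, 896 and 662 CPM against 1043, 933 and 1023 CPM. Atp5e, the small epsilon subunit, had the smallest p of the complex and was at 56.4, 48.1 and 55.2 CPM against 43.4, 44.4 and 44.995 CPM. It did not overlap between groups, and its fitted value of -0.27 (SE 0.18, unadjusted p = 0.18, edgeR) was -0.23 without Het replicate 2. Atp5k, the e subunit, was at 14.7, 11.3 and 22.7 CPM against 13.4, 10.2 and 13.9 CPM.

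Subunit c, which forms the proton-driven ring, comes from Atp5g1, Atp5g2 and Atp5g3, whose mature proteins are the same. Atp5g1 was at 197, 150 and 200 CPM against 173, 129 and 166 CPM, Atp5g2 at 78.0, 73.1 and 36.5 CPM against 69.3, 59.1 and 63.5 CPM, and Atp5g3 at 278, 216 and 113 CPM against 248, 197 and 224 CPM. By FPKM, Atp5g3 held 47.4 to 54% of the set in the other 5 libraries and 32.5% in Het replicate 2, and Atp5g1 held 29.1 to 33.8% and 53.2%. The FPKM per CPM of a gene is not fixed between libraries in these tables, since it varied by a median of 1.22 times and by up to 1.90 times (Cycs), so such shares carry that variation.

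Atp5s, which was taken in by its name, was the 1 gene with an unadjusted p under 0.05. It was at 21.5, 22.1 and 30.4 CPM against 13.4, 15.6 and 18.8 CPM, groups that did not overlap (chromosome 12, 69724950 to 69744660, plus strand; means 24.7 ± 4.96 and 15.9 ± 2.71 CPM, SD, n = 3). The log2 fold change was -0.63 (SE 0.26), with an unadjusted p of 0.039 in edgeR and an adjusted p of 0.976. Without Het replicate 2 it was -0.45 with an unadjusted p of 0.11. Atp5sl was at 31.2, 26.6 and 21.3 CPM against 22.7, 24.2 and 26.8 CPM, and Cox4nb at 98.4, 104 and 86.8 CPM against 110, 84.4 and 100 CPM. Cox4nb lies beside Cox4i1 on the opposite strand and shares 154 exon bases with it, and the strand setting of the counting was not given in these sources. In all, 30 of the 85 genes share exon bases with another annotated gene, 26 of them on the opposite strand and 4 on the same strand alone, so part of their counts is uncertain. Atp5o is among the 4 because its matched annotation entry shares 54.2% of its exon bases with Donson and 45.8% with another entry named Atp5o.

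Het replicate 2 had the widest spread over these genes. It was the highest of the 6 libraries for 37 of 82 genes and the lowest for 24, so it was at an end for 61 (74.4%), against 57.5% of all genes tested. The SD of log2 deviations over the genes was 0.532 in it and 0.172 to 0.223 in the other 5 libraries. The genes of a complex did not all lie on 1 side in it: it was the highest for 20 and lowest for 4 of 34 complex I genes, the highest for 4 and lowest for 7 of 16 complex IV genes and the highest for 5 and lowest for 7 of 15 complex V genes. The difference from the mean of the other 5 libraries ran from a log2 value of -1.63 for Cox6b2 and -1.45 for Sdhc to 1.19 for Ndufb10 and 1.44 for Cox7a1. Across the 82 genes, as a description of one library, this difference had a Spearman rho of 0.0622 with GC content, -0.0661 with length and -0.178 with mean CPM in the other 5, so it followed none of these closely. The cause was not tested. Among the other libraries, Het replicate 0 was the highest for 30 genes and the lowest for 0. That library was thus at an end for 36.6% of the 82 genes, against 26.6% of all genes tested. KO replicate 1 was the lowest for 44 and the highest for 1, at an end for 54.9% against 34.8% of all genes tested.

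**Figure D4:**
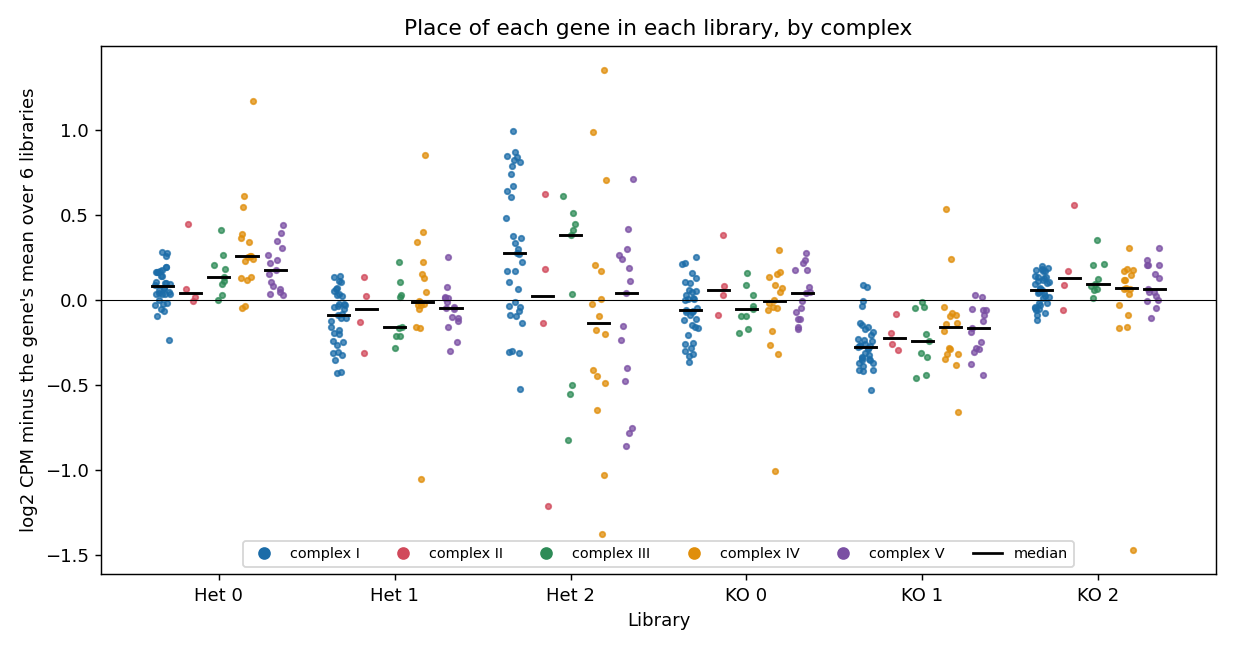
Log2 CPM of each gene of complexes I to V minus its mean over the 6 libraries, in a column of points per complex within each library, with the median as a black line. Het replicate 2 spreads most widely, with an SD of 0.532 over all genes tested of the chain, and KO replicate 1 lies mostly below 0, with a median of -0.255.

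Summed over a complex, the levels overlapped between groups in each complex. Complex I summed to 3062, 2676 and 3715 CPM against 2857, 2455 and 3066 CPM. Complex II was at 920, 828 and 904 CPM against 906, 750 and 944 CPM, and complex III at 1542, 1333 and 1779 CPM against 1404, 1248 and 1537 CPM. Complex IV was at 1481, 1259 and 1159 CPM against 1283, 1096 and 1317 CPM, and complex V at 4716, 3923 and 3212 CPM against 4434, 3834 and 4471 CPM. Het replicate 2 held the highest sum of complexes I and III and the lowest of complex V. All genes together summed to 12037, 10283 and 11049 CPM against 11188, 9615 and 11643 CPM, or 1.002 to 1.18% of counts. By mean FPKM, 61 of 85 genes were at 100 or more and 5 at 10 or less; the median was 140 FPKM for complex I, 144 for II, 223 for III, 179 for IV and 274 for V.

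**Figure D5:**
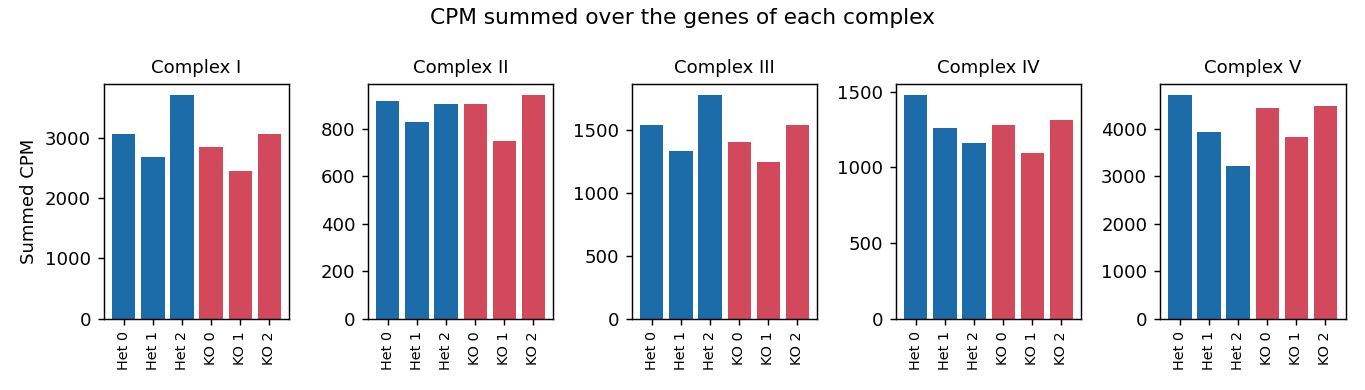
CPM summed over the genes of each complex, 1 bar per library (Het blue, KO red), on an axis that starts at 0. The groups overlap for every complex, and complex V is lowest in Het replicate 2, at 3212 CPM.

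No gene that serves the chain passed the test either. Of 46 assembly factors tested, which build the complexes, 35 had a fitted value below 0 with a median of -0.16, and without Het replicate 2 the median was -0.07. The smallest p among them was that of Ccdc56 (now Coa3, a complex IV assembly factor), at 98.5, 90.4 and 213 CPM against 84.7, 70.3 and 96.4 CPM. Of 25 genes of mitochondrial protein import 20 were below 0 with a median of -0.14 (-0.06 without Het replicate 2). The citric acid cycle had 9 of 18 below 0 with a median of -0.02 (0.0025 without Het replicate 2), and mitochondrial antioxidants 6 of 9 with a median of -0.08 (-0.015 without it). Among 23 regulators of mitochondrial gene expression 10 were below 0, and the median of 0.04 turned to -0.0084 without Het replicate 2. Polrmt, the mitochondrial RNA polymerase, was at 60.6, 39.8 and 35.8 CPM against 73.3, 54.1 and 70.4 CPM. Nrf1 was at 69.0, 54.6 and 61.6 CPM against 66.7, 67.8 and 66.5 CPM, and Ppargc1a, a coactivator of these programmes, at 9.44, 5.51 and 7.44 CPM against 10.03, 9.43 and 6.41 CPM. Tfam, which packages mitochondrial DNA, was at 30.7, 26.1 and 36.9 CPM against 26.2, 20.8 and 30.0 CPM. edgeR's quasi-likelihood test called 0 genes in any of these lists.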

How the data were processed

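Counts per gene symbol for 17213 genes were used as the authors deposited them, without normalization. Estimated counts, of which 1.66% were not whole, were deposited in a second table and rounded, and FPKM values were used as the authors computed them, scaled by length and library size. Per the submitters' processing notes, the mm10 genome was used with TopHat2 2.0.13 and Bowtie2 2.2.1, and HTSeq, Cufflinks, Cuffdiff, DESeq2 and FastQC are named without their roles. For the annotation and the strand setting, the sources used here give nothing.

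Titles of the samples gave each group and replicate number. Counts were analysed in R 4.3.3 with edgeR 4.0.16 (TMM, filterByExpr, quasi-likelihood test, two-sided, Benjamini-Hochberg over all 14632 genes tested, threshold 0.05). Alternatives used DESeq2 1.42.0 and limma 3.58.1. CPM were computed after TMM, and FPKM were used to compare levels between genes. The smallest chi-square per degree of freedom between 2 libraries was 93.8, so no libraries were merged. No counts carried molecular identifiers, and amplification from few cells means that reads are not independent molecules. With 3 libraries a group, an exact permutation test cannot go below 0.1. Positions came from GENCODE M21 and promoter windows from RefSeq (GRCm38.p6). The edgeR fit was tested on simulated counts.

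Named genes were those with the smallest p, the largest fitted value and the highest and lowest mean FPKM in each complex, those with an unadjusted p under 0.05, and the isoform sets with the Sdh and cytochrome c genes. The members and lists were chosen with earlier results of these data known. Markers of erythroid cells summed to 32.4 to 129 CPM, macrophages 22.5 to 164, neutrophils 7.09 to 491.5, endothelium 14.3 to 49.9, adipocytes 0 to 2.04, osteoclasts 208 to 293 and dental follicle 25180 to 65710. Mitochondrially encoded and mitochondrial ribosomal protein genes were not analysed here. For 1 gene of complex I, values are not reported here, although it entered the counts and medians.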

Additional observations from a re-analysis of the deposited data

How the results depend on the processing

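No gene of the chain passed the threshold under any alternative run. The count over all genes was 0 in edgeR, 69 in DESeq2 and 1 with a stricter filter, limma-voom, any of the 3 FPKM fits or a threshold of 0.1. It was also 1 with the newer quasi-likelihood method of edgeR, an alternative added after the data had been seen. Leaving out 1 library gave 0 to 1 genes. The median log2 fold change of the genes ran from -0.13 to -0.09 in these other settings and from -0.21 to -0.04 over the 6 fits without 1 library. With 1 library left out, the medians of complexes I and III kept their sign, while those of II, IV and V crossed 0 (-0.08 to 0.04, -0.17 to 0.05 and -0.13 to 0.06). Of 34 named genes tested, 13 changed sign in no setting, and 2 of 645 values moved by more than the gene's own SD of log2 CPM within groups, pooled over both, Cox7c without Het replicate 2 (-0.15) and Cox7a1 without KO replicate 1 (-2.01). Cox4i2 went from -0.56 to 0.0022 without Het replicate 0, which is within its wider SD.

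With the replicate number as a block, 0 of 82 genes and 0 genes in all were called, and the median was -0.10. Libraries of 1 number correlated at 0.169, 0.0746 and 0.0694 in their deviations from the group means, so not every pair was over 0.1, and each library correlated best with its own number, a hint from the data and not from the design. Depth limits Cox7a1, Cox6a2 and Cox7b2, which are near 0 counts.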
